A study of Mus musculus with 6 samples.

Results

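The genes described here are 10 regulators of chromosome architecture that act on the promoters of the clustered protocadherins: Ctcf, Rad21, Smc1a, Smc3, Stag1, Stag2, Nipbl, Wapl, Smchd1 and Wiz. They were taken as a named list by gene symbol from 54532 gene identifiers. The rule uses no measured value, although earlier results of these data were known when the list was made. All 10 were found, and all 10 were among the 16731 genes with enough reads to be tested. RNA of whole brains from C57BL/6J mice at postnatal day 14 was sequenced, with 1 library per brain. The 3 controls had the genotype Mphosph8fl/+ Nestin-Cre+, and the 3 mutants, labelled Mphosph8∆n, had Mphosph8fl/fl Nestin-Cre+. All 6 brains therefore carried the Cre transgene and at least 1 floxed allele, and the controls kept 1 allele that Cre cannot delete. Nestin-Cre acts in neural progenitors and the cells that descend from them, so cells of other origin, such as microglia and vessels, are expected to keep the gene. In whole brains, fewer cells of a type and less RNA per cell cannot be told apart.

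Each neuron transcribes a few clustered protocadherins, chosen among many alternative promoters, and the resulting set of adhesion proteins serves as a label of the cell. CTCF binds a conserved element in most of these promoters and in distant enhancers, and cohesin, a ring of SMC1A, SMC3 and RAD21 with a STAG subunit, extrudes loops that bring both together. NIPBL loads and drives the ring and WAPL releases it. SMCHD1, a protein related to the SMC family that takes part in X inactivation, and WIZ, a zinc finger partner of the H3K9 methyltransferases EHMT1 and EHMT2, are both known to affect protocadherin expression. MPP8, the product of Mphosph8, belongs to the HUSH complex, which represses transcription at H3K9me3 chromatin. The comparison asks whether transcripts of the loop machinery differed between brains in which the protocadherins are also measured.

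The libraries held between 12956880 and 15223424 counts, and the 10 regulators took from 0.0754% to 0.0829% of them. Values are given as CPM, the gene's count scaled to a common library size with TMM factors. Mphosph8 itself, as a check of the labels, was at 55.8, 48.6 and 70.7 CPM in control brains and at 33.1, 27.2 and 26.5 CPM in mutant brains, that is -1.02 ± 0.12 (SE) on the log2 scale (edgeR adjusted p 0.000157). Control replicate 3 had 1.82 CPM of Xist, against 874 to 1287 CPM in the other 5 libraries, and was the 1 library with more than 1 count of the 4 Y-linked genes examined. The labels give no sex. The study's methods describe littermates matched for age and sex, but these counts read as 1 male control and 5 female brains. By this reading the 2 groups were not matched for sex.

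None of the 10 regulators passed the test. In edgeR's quasi-likelihood test 0 of 10 had an adjusted p under 0.05, against 0.628% of all genes tested (0.359% with a fold above 2), and 0 of 10 had an unadjusted p under 0.05, against 6.51% (4.09% higher and 2.41% lower in mutants). DESeq2 also put 0 of 10 past either limit. The mutant values overlapped the control values for all 10 genes, where 11.6% of all genes tested did not overlap (6.23% with the mutants above and 5.42% with the mutants below). Of the log2 fold changes (mutant over control), 7 were positive and 3 negative, where 47.6% of all genes tested were positive, with a median of 0.04 against -0.01 over all genes tested. They ran from -0.08 for Smchd1 to 0.15 for Wiz, with standard errors from 0.0755 to 0.0921. Every 95% interval lay inside a 1.5-fold change in either direction, and the outermost limits were 0.827 times the control level for Smchd1 and 1.24 times for Wiz. Each regulator had between 438 and 2209 counts in a library.

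**Figure D1:**
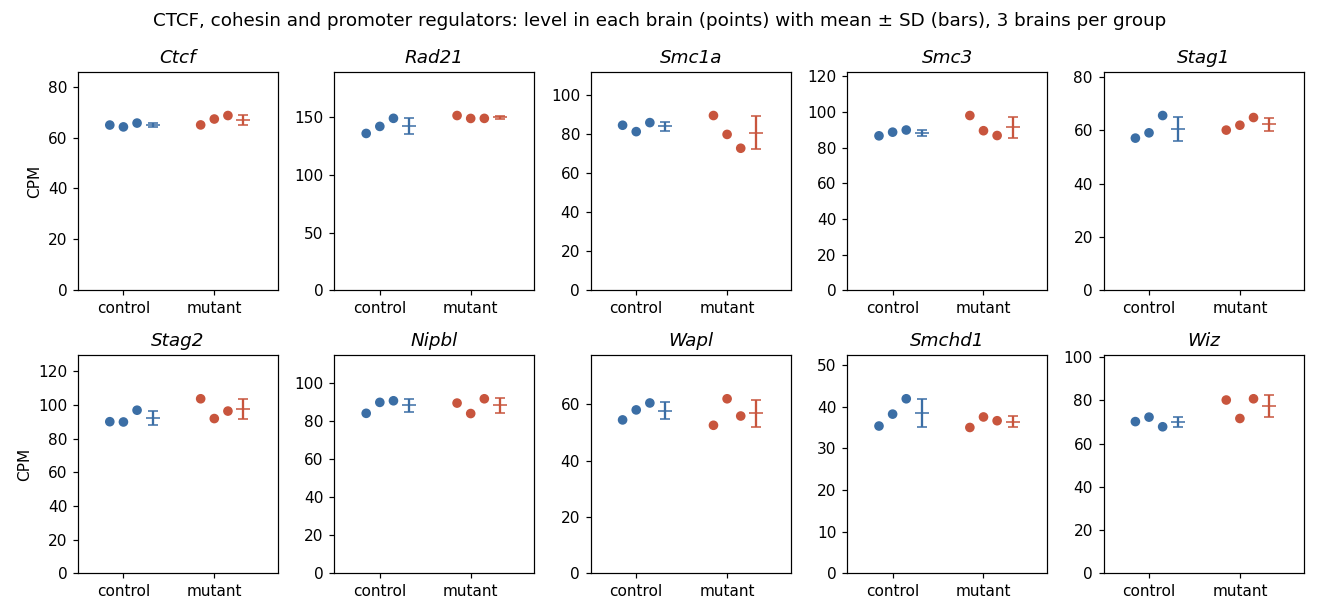
CPM of each of the 10 regulators in each control (blue) and mutant (red) brain, with the mean and SD of 3 brains beside the points and the axis from 0. In every panel the mutant points overlap the range of the control points, for example 65.0 to 68.7 CPM against 64.2 to 65.7 CPM for Ctcf.

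Ctcf (ENSMUSG00000005698, chromosome 8, 105636568 to 105682922, GRCm38, plus strand) encodes the DNA-binding factor that marks loop anchors. It had 65.0, 64.2 and 65.7 CPM in control brains and 65.0, 67.3 and 68.7 CPM in mutant brains. The control values spanned the smallest relative range of the 10 genes, with a coefficient of variation of 1.16%, and mutant replicate 1 lay within that range. The difference was 0.04 ± 0.08 (SE) on the log2 scale, with a 95% interval from -0.12 to 0.20 (edgeR adjusted p 0.978). Of its 4860 exonic bases, 370 lie opposite exons of another gene.

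The 3 core subunits of the ring gave similar pictures. Rad21 (ENSMUSG00000022314, chromosome 15, 51962240 to 51991747, minus strand), the kleisin that closes the ring, had 136, 142 and 149 CPM in control brains and 152, 149 and 149 CPM in mutant brains. Control replicate 3 was as high as the mutants, and the other controls were lower, which gave a log2 difference of 0.07 ± 0.08 (95% interval -0.09 to 0.23, edgeR adjusted p 0.947). Smc3 (ENSMUSG00000024974, chromosome 19, 53600398 to 53645833, plus strand), the ATPase subunit whose acetylation locks cohesin on DNA, had 86.6, 88.7 and 89.9 CPM against 98.0, 89.5 and 86.8 CPM. Mutant replicate 1 was the highest library and mutant replicate 3 lay near the bottom of the control range, for a log2 fold change of 0.05 ± 0.08 (95% interval -0.12 to 0.21, edgeR adjusted p 0.977). Smc1a (ENSMUSG00000041133, chromosome X, 152016428 to 152062694, plus strand), its ATPase partner, had 84.6, 81.3 and 85.9 CPM against 89.6, 79.9 and 72.8 CPM. The mutant brains enclosed the control values from both sides and had the widest spread of any regulator, a coefficient of variation of 10.4% against 2.83% in controls. Its log2 difference was -0.06 ± 0.09 (95% interval -0.24 to 0.12, edgeR adjusted p 0.974), and 0.012 without mutant replicate 3.

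The STAG subunits are alternatives, since each ring holds either STAG1 or STAG2, and they bridge cohesin to CTCF. Stag2 (ENSMUSG00000025862, chromosome X, 42149317 to 42277185, plus strand) had 90.0, 89.9 and 96.9 CPM in control brains and 104, 91.9 and 96.3 CPM in mutant brains, or 0.08 ± 0.08 on the log2 scale (95% interval -0.09 to 0.24, edgeR adjusted p 0.947). Stag1 (ENSMUSG00000037286, chromosome 9, 100597798 to 100959375, plus strand) had 57.1, 59.1 and 65.6 CPM against 60.1, 62.0 and 64.9 CPM, or 0.04 ± 0.08 (95% interval -0.13 to 0.21, edgeR adjusted p 0.984). For Stag1 the highest of the 6 values was a control, and for Stag2 it was a mutant.

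Nipbl (ENSMUSG00000022141, chromosome 15, 8290617 to 8444463, minus strand), the loader, had 84.2, 90.0 and 90.8 CPM in control brains and 89.6, 84.1 and 91.9 CPM in mutant brains. Its groups had the closest means of the 10 genes, 88.4 ± 3.59 in controls and 88.6 ± 4.0 CPM in mutants (SD, n = 3). On the log2 scale they differed by 0.0032 ± 0.08 (95% interval -0.16 to 0.17, edgeR adjusted p 0.998). Wapl (ENSMUSG00000041408, chromosome 14, 34673928 to 34747983, plus strand), the release factor, had 54.5, 58.1 and 60.5 CPM against 52.6, 62.0 and 55.9 CPM. Mutant replicates 1 and 2 held the lowest and the highest of its 6 values, and the means differed by -0.02 ± 0.09 on the log2 scale (95% interval -0.20 to 0.16, edgeR adjusted p 0.992). Mphosph8 lies on the same chromosome as Wapl, from 56668248 to 56697430.

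Smchd1 (ENSMUSG00000024054, chromosome 17, 71344489 to 71475343, minus strand) had 35.4, 38.2 and 41.9 CPM in control brains and 35.0, 37.5 and 36.6 CPM in mutant brains. Mutant replicate 1 was just below the lowest control and the other mutants were inside the control range, which gave the most negative value of the 10 genes, -0.08 ± 0.09 on the log2 scale (95% interval -0.27 to 0.11, edgeR adjusted p 0.955). It was -0.013 without control replicate 3, where Smc1a at -0.038 was more negative. Without mutant replicate 1 it was -0.055, where Smc1a at -0.14 was again more negative. Without control replicate 1 Smchd1 was at -0.14. Wiz (ENSMUSG00000024050, chromosome 17, 32354055 to 32389439, minus strand) had 70.2, 72.3 and 67.8 CPM against 80.2, 71.7 and 80.8 CPM. Mutant replicates 1 and 3 were above every control, and mutant replicate 2 was inside the control range. This gave the largest value of the 10 genes, 0.15 ± 0.08 on the log2 scale (95% interval -0.02 to 0.31, unadjusted p 0.0851, edgeR adjusted p 0.844), and Wiz ranked 1687 of 16731 genes by p. Over the fits without 1 library the value ran from 0.11 without mutant replicate 3 (unadjusted p 0.243) to 0.20 without mutant replicate 2 (unadjusted p 0.0386, edgeR adjusted p 0.596), and the other 4 had unadjusted p-values of at least 0.116. Of 9242 exonic bases of Wiz, 2099 lie opposite exons of another gene.

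**Figure D2:**
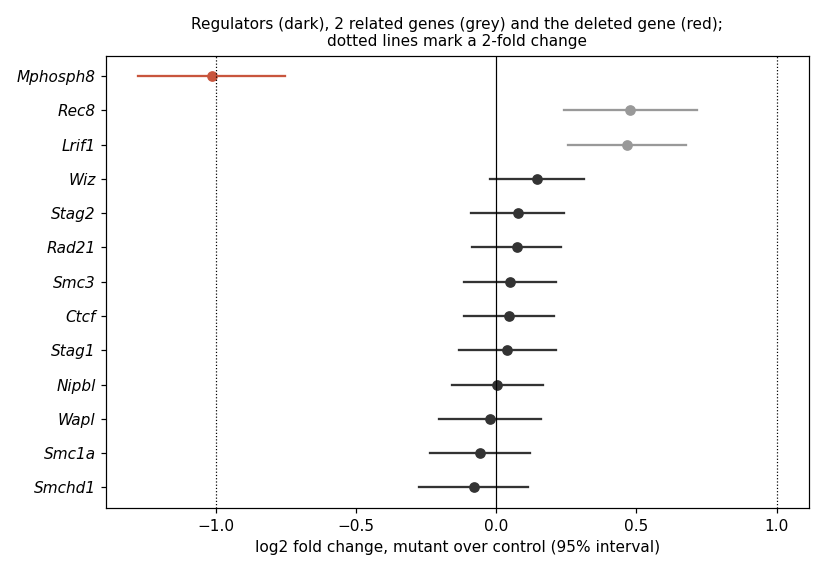
Log2 fold change of mutant over control brains with its 95% interval from edgeR for the 10 regulators (dark), Rec8 and Lrif1 (grey) and the deleted gene Mphosph8 (red). The 10 dark points lie between -0.08 and 0.15 with intervals that include 0, while Mphosph8 lies at -1.02.

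Transcript levels of the 10 genes were next set side by side per length, as CPM per kilobase of annotated exon. Rad21 was the most abundant at 33.6 ± 1.55 CPM per kilobase in control brains (SD, n = 3), and Smchd1 the least at 1.93 ± 0.164. Between them stood Smc3 at 16.0 ± 0.298, Smc1a at 14.6 ± 0.412, Ctcf at 13.4 ± 0.155, Stag2 at 11.2 ± 0.482, Nipbl at 9.38 ± 0.381, Wapl at 8.71 ± 0.457, Wiz at 7.59 ± 0.241 and Stag1 at 5.14 ± 0.377 CPM per kilobase. The control values of Nipbl and Wapl overlapped, and those of every other pair of neighbours in this order did not. The order depends on the length used. With the median length of the coding transcripts Rad21 stayed first and Smchd1 last, but every other gene changed place. Smc3 fell from place 2 to 5, Smc1a from 3 to 6, Ctcf from 4 to 7 and Nipbl from 6 to 9. Wiz rose from place 8 to 4. Stag1 moved from place 9 to place 2, at 59.9 ± 4.39 CPM per kilobase, level within the spread with Rad21 at 60.0 ± 2.77. The median coding transcript of Stag1 has 1012 bases, against 11781 bases in all its exons.

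**Figure D3:**
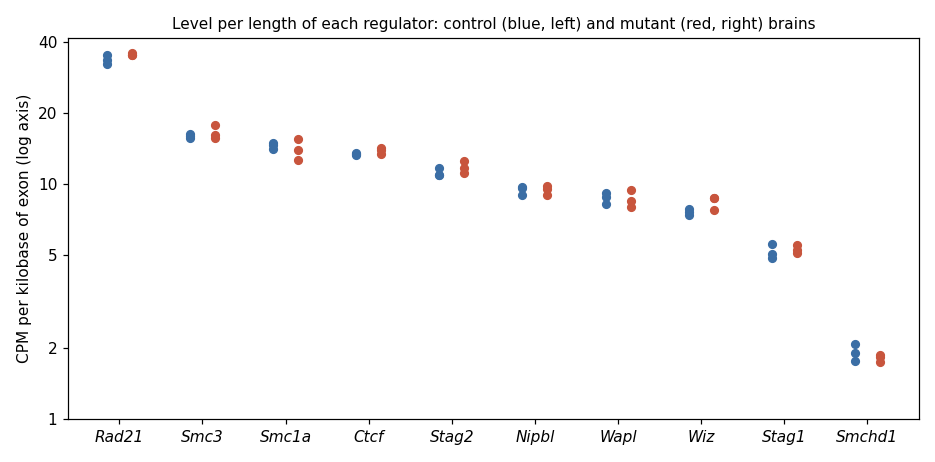
Level of each regulator per kilobase of annotated exon (log axis) in the 3 control (blue) and 3 mutant (red) brains, ordered by the control mean. Levels run from 33.6 CPM per kilobase for Rad21 to 1.93 for Smchd1, and both colours lie together for each gene.

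Ratios between partners within a library do not depend on the scaling of libraries, and 5 were compared. They are ratios of counts, not per length, and are read only between the groups. Stag1 counts stood at 0.634, 0.658 and 0.677 of those of Stag2 in control brains and at 0.580, 0.674 and 0.673 in mutant brains (exact two-sided permutation p 0.8). The Nipbl to Wapl ratio, of the loader over the release factor, was 1.53 ± 0.0272 in controls and 1.57 ± 0.186 in mutants (SD, n = 3, exact permutation p 1). Its spread was wider in the mutants, where it ran from 1.36 to 1.70. The Nipbl to Mau2 ratio, of the subunits of the loader, was 0.769 ± 0.0188 and 0.785 ± 0.0665 (exact permutation p 1, n = 3), and the Rad21 to Ctcf ratio was 2.19 ± 0.0893 and 2.24 ± 0.0836 (exact permutation p 0.5, n = 3).

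The ratio of Smc1a to Smc3, which encode the 2 ATPases that pair in the somatic ring, was the 1 ratio whose groups did not overlap. It was 0.976, 0.917 and 0.956 in control brains and 0.914, 0.892 and 0.838 in mutant brains. Mutant replicate 1 and control replicate 2 were almost level. The log2 ratio differed by -0.11 between mutants and controls. The test (exact permutation, two-sided) gave p = 0.1, the lowest possible with 3 against 3 libraries, and 0.5 after Benjamini-Hochberg adjustment over the 5 ratios.

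**Figure D4:**
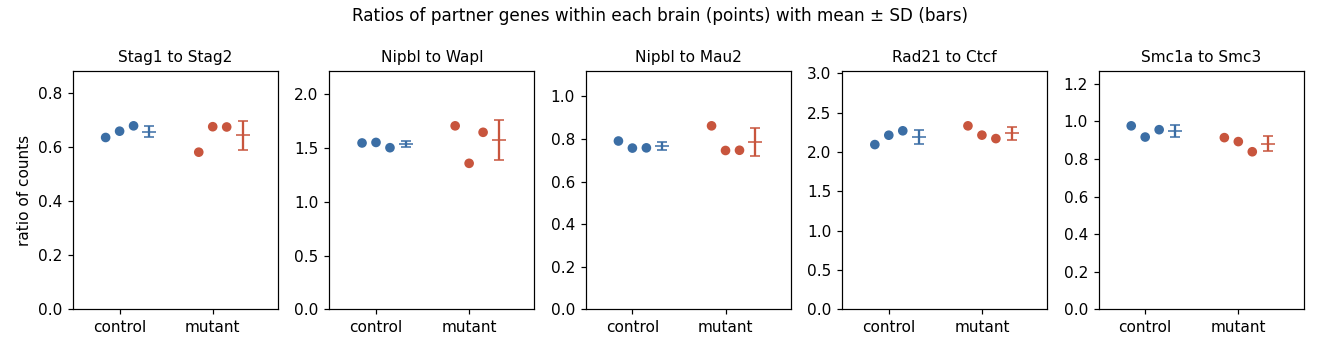
Ratio of read counts of 5 gene pairs within each control (blue) and mutant (red) brain, with the mean and SD of 3 brains and the axis from 0. Only the Smc1a to Smc3 panel has all mutant points, 0.838 to 0.914, below all control points, 0.917 to 0.976.

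Smc1a and Stag2 are X-linked, and control replicate 3 was the library that lacked Xist RNA. Genes that escape X inactivation were lowest there in 4 of 4 cases. Kdm6a had 29.6 CPM against at least 35.8 CPM in the other libraries, Kdm5c 69.9 against 77.7, Ddx3x 215 against 238, and Eif2s3x 8.03 against 11.1. Smc1a and Stag2 did not follow this pattern, since control replicate 3 had 85.9 CPM of Smc1a and 96.9 CPM of Stag2, the highest of the 3 controls for both. Without this library the log2 fold change was -0.04 for Smc1a (edgeR adjusted p 0.988) and 0.11 for Stag2 (edgeR adjusted p 0.946).

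Other genes of the same pathways were read from lists of known complexes. Among 12 cofactors of cohesin, with MAU2, the PDS5 proteins, acetyltransferases and cleavage regulators, 0 passed an edgeR adjusted p of 0.05, 0 had an unadjusted p under 0.05, and DESeq2 gave 0 at both limits. Mau2, the partner of NIPBL, was at -0.02 ± 0.08 (SE). The 2 with the smallest p were Esco2, an acetyltransferase of dividing cells, at -0.51 ± 0.33 and Hdac8, the deacetylase of SMC3, at -0.12 ± 0.10. Without control replicate 3, the library with the highest summed level of proliferation genes, Esco2 was at -0.09, and without control replicate 2 at -0.80. Among 16 genes of the condensins and the SMC5/6 complex, the count was also 0 at both limits in edgeR and in DESeq2, with Ncapg at -0.46 ± 0.25 and Smc6 at 0.11 ± 0.09 on the log2 scale. Ncapg was at -0.18 without control replicate 3, and Smc6 at 0.05 without control replicate 1 or mutant replicate 1. Of 11 other promoter and looping factors, 0 passed either limit in edgeR or DESeq2. Zfp143, which binds promoters at loop anchors, was at -0.26 ± 0.14, and Maz, a zinc finger insulator protein, at 0.14 ± 0.08 on the log2 scale. Zfp143 was at -0.14 without control replicate 3. For Hdac8 and Zfp143 all mutant values lay below all control values, as for 5.42% of all genes tested.

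The partners of SMCHD1 and WIZ held the 1 gene of these lists that passed. Lrif1 (ENSMUSG00000056260, chromosome 3), which encodes the protein that binds SMCHD1 and links it to HP1 at H3K9me3 chromatin, rose from 18.8, 17.2 and 17.8 CPM in control brains to 23.5, 25.9 and 24.9 CPM in mutant brains. Every mutant value was above every control value, as for 6.23% of all genes tested. The rise was 0.47 ± 0.10 (SE) on the log2 scale (edgeR adjusted p 0.0372), where 0.532% of genes tested were called higher. The call did not hold in all alternatives. The adjusted p was 0.0557 in DESeq2, 0.259 after removal of a GC trend, where the log2 fold change was 0.35, and above 0.05 in 5 of the 6 edgeR fits without 1 library, from 0.0666 without control replicate 1 to 0.248 without control replicate 2. The log2 fold change itself was 0.46 in DESeq2 and between 0.43 and 0.50 in these 6 fits. Its longest transcript has 33.4% GC, and 1064 of its 9192 exonic bases are shared with another gene on the same strand. Ehmt2, the G9a methyltransferase that WIZ binds, had 188, 189 and 183 CPM in controls and 212, 201 and 216 CPM in mutants, also without overlap, at 0.17 ± 0.08 on the log2 scale (unadjusted p 0.0404, edgeR adjusted p 0.726). Without mutant replicate 3 Ehmt2 was at 0.15 (edgeR unadjusted p 0.129), and without mutant replicate 2 at 0.20 (edgeR unadjusted p 0.0366). Its paralogue Ehmt1, named after its values were seen, was at -0.03 ± 0.09 on the log2 scale. DESeq2 called 0 of these 5 partners at an adjusted p of 0.05.

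Of the 5 meiotic genes, which include germline versions of the cohesin subunits and of CTCF, 2 had enough reads to be tested. Rec8, the meiotic counterpart of RAD21 (chromosome 14, 55618037 to 55625395, the chromosome of Mphosph8), had 18.3, 20.9 and 19.6 CPM in control brains and 24.2, 26.1 and 31.6 CPM in mutant brains. All mutant values were above all control values, and the difference of 0.48 ± 0.11 (SE) on the log2 scale missed the threshold (edgeR adjusted p 0.0702). It passed in 6 of 15 alternatives, with adjusted p-values of 0.00607 with no filter on low counts, 0.0123 without mutant replicate 1, 0.0222 with the replicate block and GC correction, 0.0387 with exonic length correction, 0.0441 with GC correction and 0.0457 with the replicate block. DESeq2 gave 0.0787, and the highest was 0.57 without mutant replicate 3, where the log2 fold change was 0.36. Stag3, the meiotic STAG subunit, had 5.12, 5.93 and 6.55 CPM against 5.52, 9.33 and 10.1 CPM, or 0.51 ± 0.20 on the log2 scale (edgeR adjusted p 0.553). Without mutant replicate 1, whose value lay within the control range, it was 0.73 (edgeR adjusted p 0.0239), and without mutant replicate 3 it was 0.35 (edgeR adjusted p 0.999). The other fits without 1 library lay between these values, with adjusted p-values of at least 0.612. Smc1b had 11 counts in all controls together and 8 in all mutants, Rad21l 14 and 10, and Ctcfl 0 and 2, and these 3 genes were too low in both groups to be tested.

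**Figure D5:**
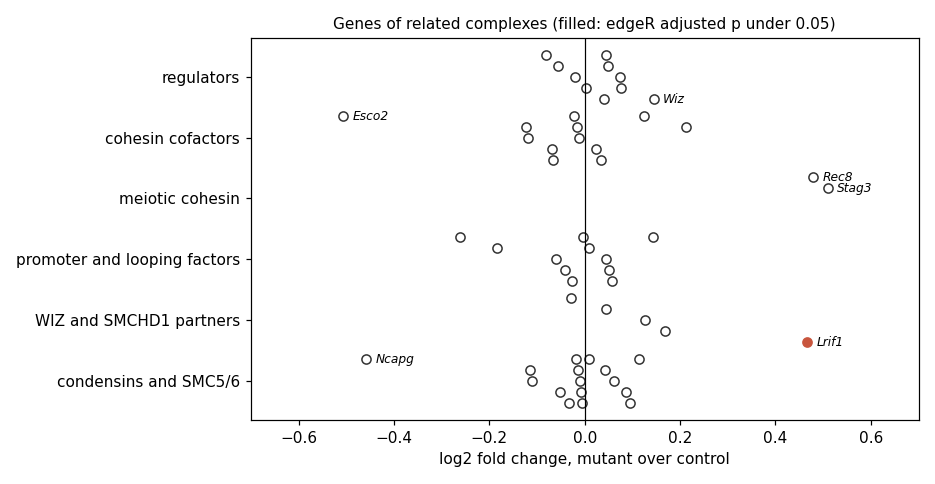
Log2 fold change (mutant over control) of each tested gene of the 10 regulators and of 5 lists of related genes, with a filled point where the edgeR adjusted p was under 0.05. Lrif1 at 0.47 is the filled point, and Rec8 at 0.48 and Stag3 at 0.51 are open.

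Upstream sequences of 3 genes are printed: Ctcf as the central factor, Wiz as the regulator with the largest difference, and Lrif1 as the related gene that passed. Which annotated start gave the reads of a gene was not measured. RefSeq promoter windows on GRCm38.p6 were found for 7 of the 10 regulators, with 10 windows in all, 4 of them of Wiz. Each line gives the 250 bases before the annotated start, 5′ to 3′ on the gene's strand, in lower case. Capitals mark matches to a core of the CTCF motif (CCA, any 2 bases, AG, any 2 bases, GGC) or to ATGGCGGC, a core of the YY1 motif. The ETS motif CCGGAAG was searched as well, and each search covered both strands. Of Wiz, the windows with a CTCF or YY1 match are printed, and of Lrif1 the first window.
Ctcf, chr8:105636288-105636537, plus strand: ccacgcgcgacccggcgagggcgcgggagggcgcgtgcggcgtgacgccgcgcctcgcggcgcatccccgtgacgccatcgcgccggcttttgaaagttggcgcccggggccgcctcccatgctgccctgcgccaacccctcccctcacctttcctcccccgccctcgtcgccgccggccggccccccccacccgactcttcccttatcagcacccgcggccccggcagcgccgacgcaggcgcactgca
Wiz upstream start, chr17:32389407-32389656, minus strand: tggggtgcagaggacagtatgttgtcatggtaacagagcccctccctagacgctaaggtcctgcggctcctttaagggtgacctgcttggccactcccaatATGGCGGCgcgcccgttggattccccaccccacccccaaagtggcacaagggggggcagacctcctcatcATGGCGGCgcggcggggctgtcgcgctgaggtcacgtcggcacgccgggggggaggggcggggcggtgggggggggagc
Wiz internal start, chr17:32369423-32369672, minus strand: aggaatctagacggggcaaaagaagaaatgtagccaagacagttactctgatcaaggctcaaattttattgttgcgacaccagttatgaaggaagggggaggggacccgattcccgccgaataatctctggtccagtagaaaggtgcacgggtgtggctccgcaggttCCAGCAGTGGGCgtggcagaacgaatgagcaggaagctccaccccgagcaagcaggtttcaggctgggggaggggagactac
Lrif1, chr3:106684737-106684986, plus strand: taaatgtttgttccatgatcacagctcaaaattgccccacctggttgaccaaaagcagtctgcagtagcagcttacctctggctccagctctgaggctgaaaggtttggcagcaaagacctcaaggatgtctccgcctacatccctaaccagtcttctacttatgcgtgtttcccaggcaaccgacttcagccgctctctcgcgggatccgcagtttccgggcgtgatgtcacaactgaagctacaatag
The CTCF core occurred in 1 of the 10 windows, at the internal start of Wiz, and in 2.07% of all 32851 windows. The YY1 core occurred in 1 of the 10, at the upstream start of Wiz, where it is present at 2 separate places, and in 1.03% of all windows. The ETS motif was in none of the 10 and in 6.91% of all windows. Lrif1 has a second window, not shown here, with 2 ETS matches. The Ctcf window had 77.6% GC with 40 CG dinucleotides and the Lrif1 window 51.6% with 9, against a median of 52.4% GC over all windows. These matches describe letters in the sequence, and binding was not measured here.

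The protocadherin promoters that these proteins act on were split by the conserved CTCF element, which is known to be missing from Pcdhac2, Pcdhb1, Pcdhgc4 and Pcdhgc5. All other genes of the cluster were taken as having the element, which was not searched for here. Among the 53 of these that were tested, 21 were higher by over 2-fold at an edgeR adjusted p under 0.05, against 0.353% of all genes tested, and the median log2 fold change was 0.75. With no fold limit 24 were higher and 2 lower, namely Pcdha12 at -0.93 ± 0.18 (edgeR adjusted p 0.0173) and Pcdhgc3 at -0.42 ± 0.09 (edgeR adjusted p 0.0437). Both are named here because of these values, and lower values were not limited to genes without the element. This cluster was the study's own subject in these libraries, so that count is not independent evidence of a direction. Of the 3 tested members without the element, 0 were higher in edgeR at this limit or at an unadjusted p under 0.05, and the median was -0.29. Pcdhgc4 fell, from 18.4, 20.9 and 24.0 CPM in control brains to 14.5, 9.85 and 12.1 CPM in mutant brains, at -0.80 ± 0.14 (SE, edgeR adjusted p 0.00723), where 0.0956% of all genes tested were called lower. Its adjusted p became 0.0647 without control replicate 3 and 0.0625 without mutant replicate 2. Pcdhac2 was at -0.29 ± 0.14 (edgeR adjusted p 0.783), from -0.50 without mutant replicate 1 to -0.16 without control replicate 3. Pcdhgc5 was at -0.23 ± 0.15 (edgeR adjusted p 0.894), from -0.45 without mutant replicate 1 to -0.08 without mutant replicate 2. Pcdhb1, with 4 counts in controls and 10 in mutants, was not tested. The difference between promoters with and without the element was not tested. All 3 tested genes without it are C-type members of the cluster, marked by ac or gc in the symbol. Lack of the element and C-type therefore cannot be told apart in these 3 genes. Pcdhgc3, taken as having the element, is also a C-type member.

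Markers of the cell types in the tissue were read beside these values. Neuronal markers, with Rbfox3 and Snap25 among the 7, summed to between 5227 and 5553 CPM in controls and between 5003 and 5658 CPM in mutants. In edgeR 0 of 7 passed an adjusted or an unadjusted p of 0.05. DESeq2 put 0 and 1 past these limits, where 0.568% and 2.43% of all genes with such a value passed. Oligodendrocyte markers were lower in mutants in 8 of 8 genes at an unadjusted p under 0.05, which 2.41% of all genes tested reached in this direction. In edgeR 2 of 8 passed an adjusted p of 0.05, where 0.0956% of all genes tested were called lower. DESeq2 called 5 of 8, against 0.568% of all genes in either direction. The 8 markers summed to between 21580 and 25840 CPM in controls and between 17130 and 19850 CPM in mutants, and no marker was at 0. Astrocyte, microglia and endothelial markers summed to overlapping ranges in both groups, with 0 past an adjusted p of 0.05 in edgeR or DESeq2. Of 6 astrocyte markers, 3 were higher and 3 lower in mutants. In edgeR 1 was higher at an unadjusted p under 0.05, against 4.09% of all genes tested. DESeq2 put 3 of the 6 past that limit in either direction, against 2.43% of all genes with an unadjusted p-value there. For 2 of the 6 all mutants lay above all controls, as for 6.23% of all genes tested. The part of cell composition in the values of Lrif1, Rec8 and Wiz was not tested.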

How the data were processed

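Polyadenylated RNA of 6 whole brains was sequenced as single reads. The authors trimmed the reads with Trim Galore 0.5.0, discarded those that Bowtie2 2.3.4.1 placed on ribosomal, mitochondrial, phiX or adapter sequence, and mapped what was left to GRCm38 with STAR. The deposited files hold raw counts of reads in each gene from featureCounts (Subread 1.6.2), 12956880 to 15223424 per library. The sources used here do not give its strand or overlap settings. Of 454 genes lying wholly within exons of the opposite strand 27.5% had at least 10 counts, against 33.5% of genes with no overlap and 0.399% of 752 genes within exons of their own strand. Genes within opposite-strand exons thus had reads nearly as often as genes with no overlap. Those within exons of their own strand rarely did.

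Symbols, coordinates and exon lengths came from GENCODE M21 (GRCm38), and promoter windows from RefSeq. All genes were fitted with edgeR 4.0.16 in R 4.3.3 (filterByExpr, TMM, quasi-likelihood F test, genotype as the only term), with Benjamini-Hochberg adjustment over 16731 genes. Standard errors and 95% intervals were derived from the F statistic. Ratios were compared by exact two-sided permutation over 20 splits. The fit was tested on simulated data. The design text counts 3 mice per genotype. The study describes littermates, but the labels tie no library to a litter. Libraries of 1 group differed by more than sampling noise, with a chi-square per degree of freedom of at least 3.42. Members and lists were chosen with earlier results of these data known. Named genes were the 10 regulators, Mphosph8, Mau2, the 2 genes of smallest p in each related list with any past the threshold, the protocadherins without a CTCF element, Xist and 4 escape genes. Alternatives were RLE factors, DESeq2 1.42.0, no filter or at least 1 CPM in 3 libraries, protein-coding genes only, corrections for GC or exonic length (loess span 0.3), the replicate block and each library left out.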

Additional observations from a re-analysis of the deposited data

How the results depend on the processing

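Across 15 alternatives no regulator passed an adjusted p of 0.05, and the lowest adjusted p was 0.596, for Wiz without mutant replicate 2. In that fit 1 regulator, Wiz, had an unadjusted p under 0.05, so this count ran from 0 to 1 over the fits without 1 library. The median log2 fold change of the regulators ran from 0.015 to 0.059. Ctcf, Rad21, Stag2, Smchd1 and Wiz kept their sign under all 15 alternatives. The other regulators, Mau2 and Kdm5c changed sign: Nipbl was at -0.00013 in DESeq2, and the fits without 1 library ran from -0.031 to 0.038 for Nipbl, -0.14 to 0.012 for Smc1a, -0.0050 to 0.084 for Smc3, -0.0022 to 0.10 for Stag1, -0.090 to 0.030 for Wapl, -0.086 to 0.034 for Mau2 and -0.065 to 0.096 for Kdm5c. The log2 ratios ran from -0.070 to 0.038 for Stag1 to Stag2, -0.037 to 0.13 for Nipbl to Wapl, -0.042 to 0.062 for Nipbl to Mau2 and -0.0021 to 0.056 for Rad21 to Ctcf, while Smc1a to Smc3 ran from -0.13 to -0.072. The cause of these changes was not tested.

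Over all genes, 105 had an adjusted p under 0.05, against 242 with no filter on low counts, 66 without control replicate 3 and 162 without mutant replicate 1, the widest changes. Both groups use the numbers 1 to 3, but the deviations of libraries with 1 number correlated at only 0.104, -0.0467 and 0.0804, so the numbers were not read as pairs. In the fit with the replicate block 124 genes passed, with 0 regulators among them, Wiz at a log2 fold change of 0.14 and Rec8 at an adjusted p of 0.0457. The block with GC correction gave 115 genes.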

Other observations

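The 10 regulators summed to 764, 784 and 814 CPM in control brains and to 825, 795 and 804 CPM in mutant brains, and control replicate 3 lay within the mutant range. Mutant replicate 1 held the highest value of 4 regulators, Rad21, Smc1a, Smc3 and Stag2, and the lowest of 2, Wapl and Smchd1. Control replicate 1 was above the mean of the 6 libraries for 1 of the 10 and held the lowest value of 3. Genes of dividing cells, in which cohesin also holds sister chromatids together, summed to 96.1 CPM in control replicate 3 and to between 60.3 and 70.8 CPM in the other 5 libraries. That library had the highest Smchd1 and Stag1 values. The part of dividing cells in these values was not tested.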
